A study of Mus musculus with 16 samples.

Results

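The SIBLING family (small integrin-binding ligand, N-linked glycoproteins) was followed in RNA sequencing of mouse periodontal ligament, the connective tissue that holds a tooth root in its bony socket. Its 5 genes were taken as members of a named family, with no threshold on a measured value, though earlier results of these data were known: Spp1 (ENSMUSG00000029304.15, osteopontin), Ibsp (ENSMUSG00000029306.9, bone sialoprotein), Dmp1 (ENSMUSG00000029307.8, dentin matrix protein), Mepe (ENSMUSG00000053863.4, matrix extracellular phosphoglycoprotein) and Dspp (ENSMUSG00000053268.8, dentin sialophosphoprotein). All 5 were found among the 55359 genes of the count table, and all 5 were among the 20953 genes tested after a filter on low counts. The 16 libraries came from wild-type C57BL/6J males aged 9 weeks and formed 4 groups with n = 4 each. Control mice received no treatment. Ligature mice had a silk thread tied round the upper left second molar, which brings on periodontitis. Trauma mice had composite resin built up on the chewing surface of that molar, which overloads the tooth, and ligature plus trauma mice had both. The time between treatment and sampling is not given in the sources used here. The labels do not say whether a library was 1 mouse or a pool, and the p-values therefore reflect differences among libraries that may in part be technical.

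SIBLING proteins are secreted into mineralising matrix, carry acidic stretches that bind calcium, and hold an Arg-Gly-Asp (RGD) site read by integrins on the cell surface. Bone sialoprotein is made by osteoblasts and cementoblasts and marks early mineral deposition. Dentin matrix protein and Mepe are made mainly by osteocytes, the cells buried in bone, and dentin sialophosphoprotein mainly by odontoblasts, the cells that lay down dentin. Osteopontin is the broadly expressed member: osteoblasts make it, and so do osteoclasts, macrophages and several epithelia.

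The RGD site is the feature that names the family, so its coding sequence is shown for each member. The 5 genes lie next to each other on chromosome 5 in the order Dspp, Dmp1, Ibsp, Mepe, Spp1. The following stretches of the coding strand are read 5′ to 3′ from GENCODE M21 transcripts, the capitals mark the 3 codons for Arg, Gly and Asp, and the lower-case bases are 3 codons on either side.
Spp1: cccaacggcCGAGGTGATagcttggct
Ibsp: ggggagcctCGTGGCGACacttaccga
Dmp1: agcgagtccAGGGGTGACaacccagat
Mepe: cttctagtgAGGGGAGATaatgatgtc
Dspp: agtggcagcCGTGGAGATgcttcttac
Each member held 1 such site, starting at codon 145 of 295 in Spp1, 293 of 324 in Ibsp, 350 of 503 in Dmp1, 183 of 441 in Mepe and 479 of 945 in Dspp. The site thus lay near the end of the Ibsp reading frame and nearer the middle of the Spp1, Mepe and Dspp frames.

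The acidic stretches differed between members and are shown for the most abundant transcripts and for Mepe. Ibsp held a run of 11 Glu codons (codons 157 to 167) and Spp1 a run of 10 Asp codons (codons 86 to 95), in capitals below with 3 flanking codons. The Mepe entry is its last 20 codons, with the 14 codons for Ser, Asp or Glu in capitals.
Ibsp: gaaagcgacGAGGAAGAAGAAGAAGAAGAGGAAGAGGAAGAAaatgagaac
Spp1: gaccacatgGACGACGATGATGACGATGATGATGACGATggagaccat
Mepe: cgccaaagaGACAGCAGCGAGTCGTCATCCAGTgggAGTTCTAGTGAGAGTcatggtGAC
Asp and Glu together made up 24.1% of Ibsp codons, 23.1% of Spp1, 28.0% of Dmp1, 10.7% of Mepe and 25.3% of Dspp codons. Serine was at 8.02% in Ibsp and 36.4% in Dspp, where 98 consecutive codons were for Ser or Asp, the phosphoprotein repeat of dentin.

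Total counts per library ran from 58458102 to 77468584. Levels are given as CPM, each count divided by the library total after trimmed-mean scaling. In 3 libraries, numbered ligature 2 and ligature plus trauma 2 and 3, expression across genes rose less with transcript length (rank correlation 0.118, 0.164 and 0.160) than in the other 13 libraries (0.221 to 0.350). The average ligature effects of Spp1 and Dspp are therefore also given without these 3 libraries. Lost calls of mineralisation, enzyme, receptor and enamel genes are stated too. Marker lists are given with all 16 libraries only. Periodontal ligament fibroblast markers were read in every library: the sum of the 11 listed genes was 16339 to 59169 CPM across controls and 23799 to 58521 across trauma libraries, against 18602 to 37973 with a ligature and 27416 to 43109 with both. Markers of odontoblasts and pulp were read too, and their values stand beside Dspp.

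Spp1 and Ibsp were among the most abundant transcripts of the tissue, and the other members were far below. Per kilobase of exon, the median over the 16 libraries was 8065 CPM for Spp1, 3272 for Ibsp, 201 for Dmp1, 81.5 for Dspp and 49.5 for Mepe. Spp1 was above Ibsp in 16 of 16 libraries on this scale, by 1.28 to 4.96 times, and Ibsp was above Dmp1 in 16 of 16, by 7.39 to 42.4 times. The lower members were not in a fixed order, since Dmp1 exceeded Dspp in 13 libraries and Dspp exceeded Mepe in 10. By raw count, Spp1 ranked between the first and the 24th gene of a library and made up 0.413% to 2.11% of its counts. The first rank was reached in ligature 1. Ibsp ranked between 7 and 25 and made up 0.398% to 0.999%. The members also differed in how much they varied: the highest library was 3.002 times the lowest for Ibsp, 4.76 times for Spp1, 9.20 for Dmp1, 11.9 for Mepe and 48.6 for Dspp.

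**Figure D1:**
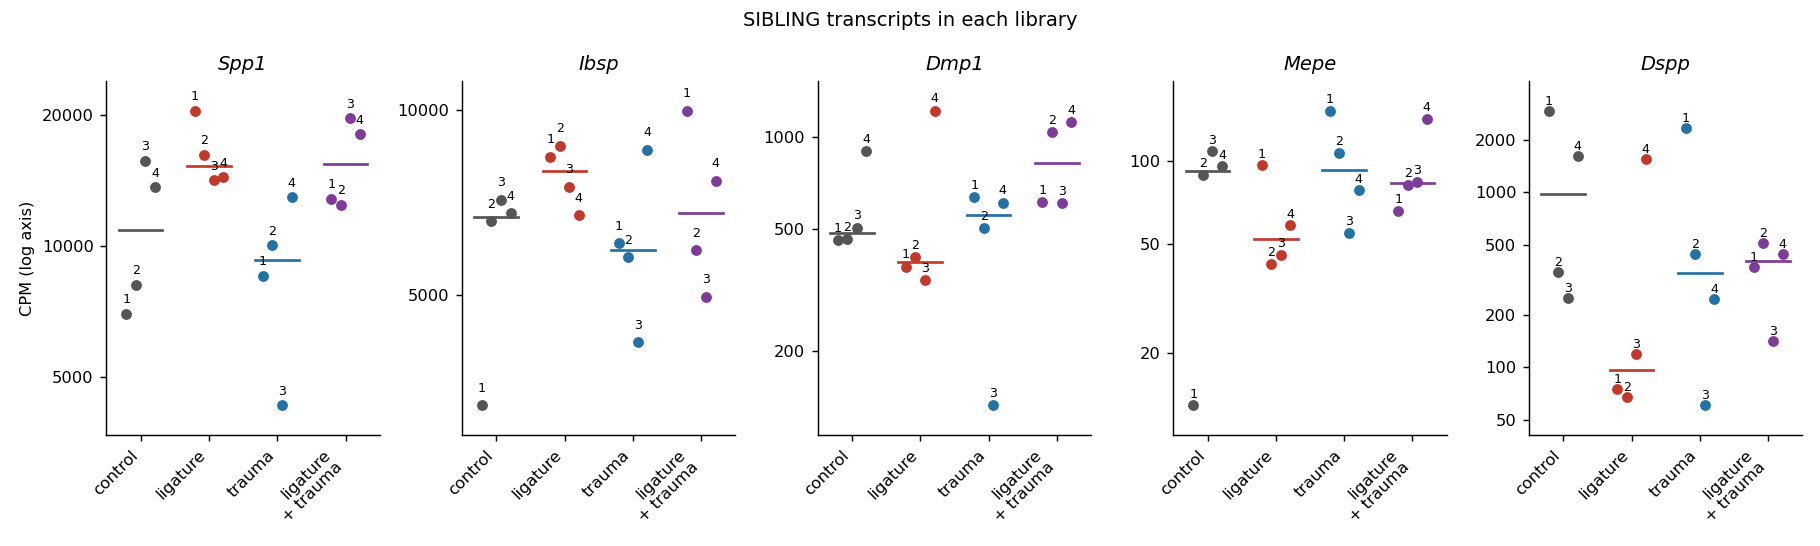
CPM of each SIBLING transcript in the 16 libraries, on log axes that differ between panels; digits are library numbers within a group and horizontal lines are group medians. Spp1 lay at 12426 CPM or above in all 8 libraries with a ligature, while Dspp was spread from 60.5 to 2940.0 CPM with ligature 4 far above the other ligature libraries.

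Spp1, the osteopontin gene, was the only SIBLING transcript called for the ligature, and it was higher with it. It was at 6979, 8141, 15682 and 13654 CPM in controls 1 to 4 and at 20460.1, 16189.7, 14165 and 14394 in ligature 1 to 4. In trauma it was at 8542, 10019.9, 4298 and 12927 CPM, and in ligature plus trauma at 12828, 12426, 19666 and 18073. Controls 3 and 4 and trauma 4 reached into the range of the 8 libraries with a ligature, so the groups overlapped, and trauma 3 was the lowest of all. Trauma 3 also had the highest sum of oral epithelium markers of all libraries (28557 CPM) and the lowest ligament fibroblast sum of its group (23799 CPM). The part of tissue make-up in its Spp1 level was not tested. Group means were 11114 ± 4214 CPM in control, 16302 ± 2916 in ligature, 8947 ± 3595 in trauma and 15748 ± 3666 in ligature plus trauma (SD, n = 4).

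Averaged over mice with and without trauma, Spp1 rose by 0.68 ± 0.24 on the log2 scale with the ligature (SE; 95% interval 0.18 to 1.19, edgeR adjusted p = 0.0492), or 1.61-fold, and it was higher in 56 of 64 pairs of libraries. Thus 1 of 5 members was called for this average effect, where 21.5% of all genes tested were called, 10.8% higher and 10.7% lower. That is close to the share among all genes. The call sat at the threshold. It was lost on leaving out any single library except control 3 or trauma 4 (edgeR adjusted p = 0.0504 to 0.0978), and in the 13 libraries without the length shift (0.66, edgeR adjusted p = 0.131), while the estimate stayed between 0.57 and 0.80 with 1 library left out.

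Split by trauma, no Spp1 difference passed over all genes. It was 0.55 ± 0.33 for ligature against control (edgeR adjusted p = 0.304) and 0.82 ± 0.34 for ligature plus trauma against trauma (edgeR adjusted p = 0.187). The latter p of edgeR's quasi-likelihood test was 0.0269 before Benjamini-Hochberg adjustment. Without trauma 3 the latter difference was 0.58 ± 0.31 (edgeR adjusted p = 0.352). The interaction, the ligature effect with trauma minus that without, was 0.26 ± 0.47 (95% interval -0.73 to 1.26, edgeR adjusted p = 0.9999). Trauma against control gave -0.31 ± 0.33 (95% interval -1.02 to 0.39) and ligature plus trauma against ligature -0.05 ± 0.33 (-0.76 to 0.66). These comparisons share libraries and are not independent of each other.

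Markers of other cells that make osteopontin moved with the ligature. The 13 osteoclast genes summed to 1342 to 4298 CPM in control and 1470.1 to 4336 in trauma, against 11429 to 16470 in ligature and 10618 to 13729 in ligature plus trauma. The groups with and without a ligature did not overlap, and none of the 13 genes was at 0 in any library. Of the 13, 11 rose and none fell in the average ligature effect (median log2 fold change 2.24, against -0.05 over all genes). Among all genes tested 10.8% rose and 10.7% fell in this effect, a share that also stands beside the lists below. The 14 monocyte and macrophage genes summed to 1636 to 2446 CPM in control, 1352 to 2896 in trauma, 2786 to 3868 in ligature and 2882 to 4060.1 in ligature plus trauma, with none at 0, and 6 rose and 2 fell. Of the other marker lists, mature neutrophil genes rose in 7 of 10 and fell in none, ligament fibroblast genes fell in 5 of 11 with 1 higher (Col12a1, 1.316 ± 0.18), and skeletal muscle genes rose in 2 of 10 (Acta1 and Ckm). The 10 muscle genes summed to 969 CPM in ligature 2, one of the libraries with the length shift, to 175.5 in control 3 and 152 in ligature 3, and to 5.79 to 114 in the other 13 libraries, with 7.76 in ligature 4. Col12a1, Acta1 and Ckm were named after their values were seen. The part of these cells in the Spp1 difference was not tested, and in bulk tissue a shift in the number of cells of a type and a shift in RNA per cell cannot be told apart.

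Ibsp, the bone sialoprotein gene, was not called in any comparison. It was at 3319, 6594, 7149 and 6794 CPM in control and at 8394, 8745, 7504 and 6739.7 in ligature. In trauma it was at 6078, 5768, 4199 and 8615 CPM, and in ligature plus trauma at 9965, 5921, 4975 and 7664. Control 1 was the lowest library and ligature plus trauma 1 the highest, and each pair of groups overlapped. Group means were 5964 ± 1778, 7846 ± 904, 6165 ± 1829 and 7131 ± 2193 CPM (SD, n = 4) in the order control, ligature, trauma, ligature plus trauma. The average ligature effect was 0.30 ± 0.21 on the log2 scale (95% interval -0.13 to 0.74, edgeR adjusted p = 0.312), and the average trauma effect was -0.05 ± 0.21 (-0.48 to 0.39).

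Dmp1, which in osteocytes guides mineralisation and phosphate handling, was not called either. It was at 458, 464, 505 and 900.2 CPM in control and at 376, 404, 340.3 and 1219 in ligature. In trauma it was at 636, 503, 132 and 609.5 CPM, and in ligature plus trauma at 611, 1034, 606 and 1119. Ligature 4 stood far above ligature 1 to 3, which were themselves below every control, and trauma 3 was the lowest library, so the groups overlapped. Group means were 582 ± 213 CPM in control, 585 ± 423 in ligature, 470.3 ± 232 in trauma and 843 ± 273 in ligature plus trauma (SD, n = 4). The log2 difference was 0.01 ± 0.47 for ligature against control (95% interval -0.996 to 1.01) and 0.84 ± 0.48 for ligature plus trauma against trauma (-0.17 to 1.85, edgeR adjusted p = 0.363). The average ligature effect was 0.42 ± 0.34 (-0.29 to 1.13, edgeR adjusted p = 0.3896).

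Mepe, an osteocyte product that restrains mineralisation when its acidic end is cleaved off, was the scarcest member. It was at 12.9, 89.2, 109 and 96.0 CPM in control and at 96.9, 42.4, 45.6 and 58.4 in ligature. In trauma it was at 153, 107, 54.9 and 78.4 CPM, and in ligature plus trauma at 66.1, 82.3, 84.4 and 143. Control 1 was far below every other library, the same library in which Ibsp was lowest, and ligature 2 to 4 lay below the other 3 controls. Control 1 also had the lowest ligament fibroblast marker sum of all libraries (16339 CPM). The part of tissue make-up in its Mepe and Ibsp levels was not tested. Group means were 76.8 ± 43.4, 60.8 ± 25.0, 98.5 ± 42.4 and 94.0 ± 33.8 CPM (SD, n = 4) in control, ligature, trauma and ligature plus trauma. No comparison was called: the average ligature effect was -0.20 ± 0.35 (95% interval -0.94 to 0.53, edgeR adjusted p = 0.720) and the average trauma effect 0.49 ± 0.35 (-0.24 to 1.23, edgeR adjusted p = 0.790).

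The 10 osteocyte marker genes, which leave out Dmp1 and Mepe, summed to 467 to 835 CPM across controls and 397 to 833 across trauma libraries, against 472 to 794 with a ligature and 514 to 908 with both, with at most 1 gene at 0 in a library. Their median log2 fold change was -0.94 in the average ligature effect (all genes -0.05) and -1.54 in ligature against control (all genes -0.05), whereas the sums overlapped between groups. The mean log2 CPM of the list was 4.25 to 5.01 across controls and 3.36 to 5.24 across trauma libraries, against 2.54 to 4.54 with a ligature and 3.72 to 4.46 with both. Ligature 1 to 3 lay below all controls, and ligature 4 within their range. Of the 10 genes 1 fell and 2 rose in the average ligature effect, where 10.7% of all genes tested fell and 10.8% rose. Sost, the Wnt inhibitor made by osteocytes, fell (-2.66 ± 0.74, edgeR adjusted p = 0.0183), and Pdpn (0.50 ± 0.14) and Cd44 (0.70 ± 0.20), which other cells also express, rose. These 3 were named after their values were seen.

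Dspp, the gene of the main dentin phosphoprotein, had the widest spread within groups. It was at 2940.0, 349.7, 248 and 1607 CPM in control and at 74.6, 67.4, 119 and 1559 in ligature. In trauma it was at 2344, 445, 60.5 and 246 CPM, and in ligature plus trauma at 372, 511, 141 and 443. Ligature 1 to 3 lay below all 4 controls, whereas ligature 4 was close to control 4, and trauma spanned nearly the whole range. Group means were 1286 ± 1264 CPM in control, 455 ± 736 in ligature, 774 ± 1058 in trauma and 367 ± 161 in ligature plus trauma (SD, n = 4).

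The average ligature effect on Dspp was -1.29 ± 0.79 on the log2 scale (95% interval -2.97 to 0.39, edgeR adjusted p = 0.261). It depended on the setting and on single libraries. In the 13 libraries without the length shift it was -1.04 ± 0.96 (edgeR adjusted p = 0.530). With each library's slope on transcript length as a covariate it was -0.11 ± 0.92 (edgeR adjusted p = 0.958). Without ligature 4 it was -2.48 ± 0.70 and was called (edgeR adjusted p = 0.0222), and without trauma 1 it was -0.47 ± 0.73 (edgeR adjusted p = 0.698). Ligature against control gave -1.50 ± 1.13 and was called without ligature 4 (-3.88, edgeR adjusted p = 0.0436). The average trauma effect was -0.52 ± 0.78 (-2.18 to 1.14). The 8 other odontoblast and pulp genes summed to 686 to 1131 CPM in control, 375 to 1142 in trauma, 230 to 506 in ligature and 321 to 549 in ligature plus trauma, with at most 1 at 0 in a library. Of the 9 genes with Dspp, none rose and 2 fell in the average ligature effect, Bmp3 (-1.58 ± 0.24) and Ccn4 (-0.56 ± 0.17), both named after their values were seen. The share among all genes tested was 10.8% higher and 10.7% lower. How much pulp or dentin-forming tissue each library held was not measured, and its part in the Dspp values was not tested.

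In each of the other comparisons no member was called by edgeR, DESeq2 or limma-voom, and Spp1 in ligature plus trauma against trauma was the only one with an unadjusted p under 0.05. The share called among all genes tested was 10.7% for ligature against control, 12.5% for ligature plus trauma against control and 5.48% for ligature plus trauma against trauma, so 0 of 5 is no unusual count. It was 0.00477%, or 1 gene, for trauma against control and again for the average trauma effect. No gene was called by edgeR (0%) for ligature plus trauma against ligature or for the interaction, where 734 and 1032 genes had an unadjusted p under 0.05, DESeq2 called 44 and 64, and limma-voom called none.

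**Figure D2:**
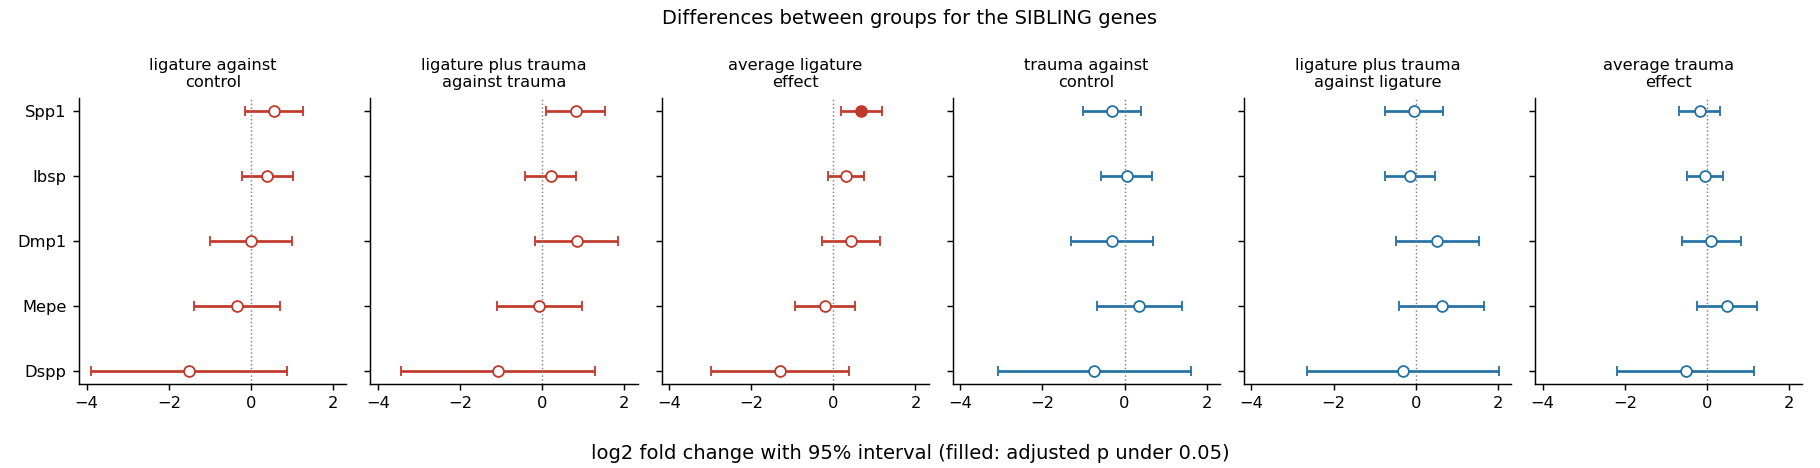
Log2 fold changes of the SIBLING genes in pairwise comparisons and the average effects, with 95% intervals from edgeR. Ligature plus trauma against control is not drawn. Red marks comparisons for the ligature, blue those for trauma, and a filled point an adjusted p under 0.05. The filled point is Spp1 in the average ligature effect (0.68), and the intervals of Dspp are the widest.

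The members were next set against Spp1 within each library, since a ratio of counts from 1 library does not depend on its total. The log2 ratio of Ibsp to Spp1 was -0.88 ± 0.39 in control, -1.05 ± 0.18 in ligature, -0.48 ± 0.32 in trauma and -1.16 ± 0.66 in ligature plus trauma (mean ± SD, n = 4). The ratio fell by 0.43 with the ligature, averaged over trauma, but did not pass (exact stratified permutation test, two-sided, p = 0.0665, adjusted p = 0.134 over 8 tests). For Dmp1 the ligature difference was -0.33 (exact permutation p = 0.358, adjusted p = 0.513) and for Dspp -1.90 (exact permutation p = 0.0669, adjusted p = 0.134). Exon length is 4431 bp in Dspp and 1648 bp in Spp1, so their ratio does not remove the length shift. The 3 libraries with that shift all had a ligature.

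Mepe to Spp1 had the lowest unadjusted p-values of the 8 tests. The log2 ratio was -7.48 ± 1.11 in control, -8.13 ± 0.37 in ligature, -6.50 ± 0.65 in trauma and -7.42 ± 0.39 in ligature plus trauma (mean ± SD, n = 4). It differed by -0.79 with the ligature (exact permutation p = 0.0400, adjusted p = 0.134) and by 0.84 with trauma (exact permutation p = 0.0176, adjusted p = 0.134). The trauma difference pointed the same way without the ligature (0.98) and with it (0.71). Neither passed. Without control 1 the ligature difference was -1.05 (exact permutation, adjusted p = 0.0196), and without trauma 4 the trauma difference was 0.99 (exact permutation, adjusted p = 0.0392). With trauma the other ratios differed by 0.14 for Ibsp, 0.31 for Dmp1 and 0.07 for Dspp (exact permutation p = 0.528, 0.385 and 0.942). No ratio therefore set Spp1 apart from the bone and tooth members beyond the spread between libraries, after adjustment.

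**Figure D3:**
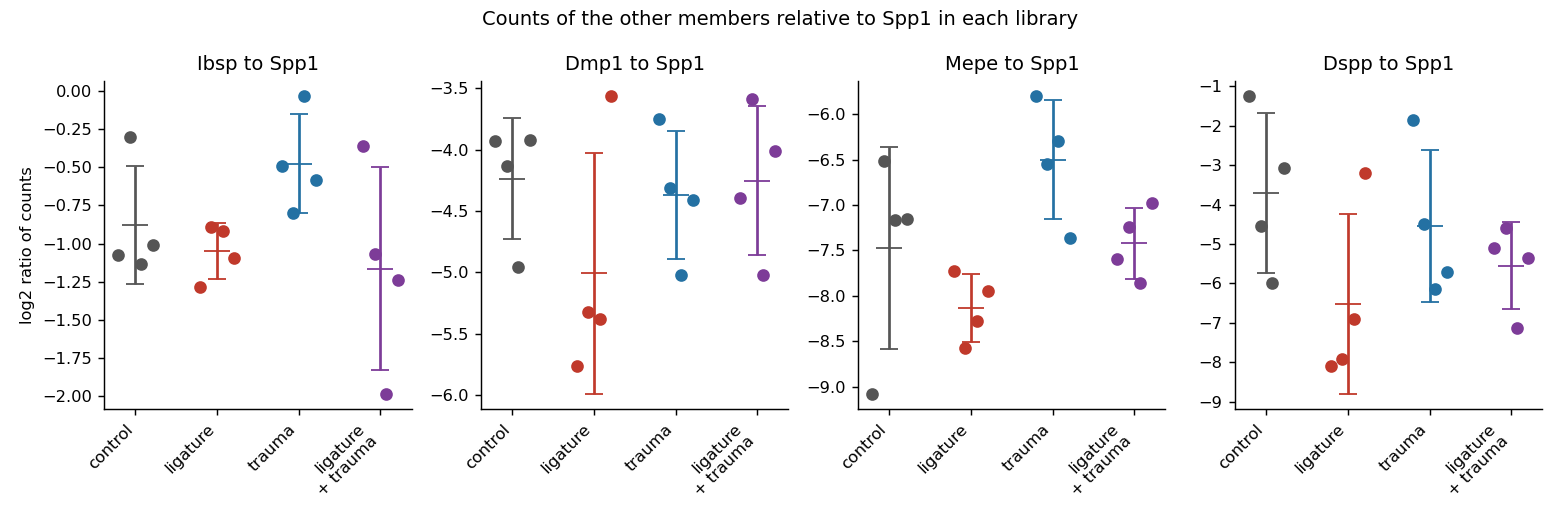
Log2 ratios of the counts of Ibsp, Dmp1, Mepe and Dspp to those of Spp1 in each library (points) with group means and SDs (bars, n = 4). The mean Mepe ratio was highest in trauma (-6.50) and lowest in ligature (-8.13). In the Ibsp and Mepe panels the ligature and trauma libraries do not overlap. All other pairs of groups there overlap, as do all pairs in the Dmp1 and Dspp panels.

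Other genes of mineralising cells were lower with the ligature, while none of the bone members Ibsp, Dmp1 and Mepe was called. Of 21 tested mineralisation and osteoblast genes other than the SIBLING members, 14 fell and none rose in the average ligature effect, with a median log2 fold change of -0.96 (over all genes tested 10.7% fell, median -0.05). With 1 library left out, 11 to 14 fell and 0 to 1 rose, and with DESeq2 1 rose. The calls of Sp7, Sparc and Pth1r sat at the threshold (edgeR adjusted p = 0.0450, 0.0472 and 0.0482). They were lost in 13, 12 and 12 of 16 fits with 1 library left out, and in the 13 libraries without the length shift. Whether the SIBLING members differ from the mineralisation and osteoblast list was not tested. Osteocalcin, a late osteoblast product, is encoded by Bglap (-1.89 ± 0.26, edgeR adjusted p = 0.000147) and its near copies Bglap2 (-2.08 ± 0.27) and Bglap3 (-2.93 ± 0.65), whose reads may be shared. Smpd3, a sphingomyelinase needed for mineralisation, fell by 2.82 ± 0.39 on the log2 scale and Ifitm5, an osteoblast membrane protein, by 2.22 ± 0.34. The transcription factor Runx2 (-0.60 ± 0.15) and the collagen gene Col1a1 (-0.86 ± 0.18) also fell. By contrast Alpl, the phosphatase that frees phosphate for mineral, was at -0.29 ± 0.18 (edgeR adjusted p = 0.268) and Mgp, an inhibitor of calcification, at 1.16 ± 0.44 (0.0733). Sp7, Sparc, Pth1r, Bglap3, Runx2, Col1a1, Alpl and Mgp were named after their values were seen.

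The distance between Ibsp and osteocalcin within a library was chosen for description after the values were seen. The log2 ratio of Ibsp to Bglap ran from 1.16 to 1.91 in control and from 0.91 to 2.26 in trauma. It ran from 3.62 to 5.09 in ligature and from 1.88 to 3.62 in ligature plus trauma. Every ligature library was above every library without a ligature, and ligature plus trauma overlapped control and trauma at its lower end. Against the collagen gene Col1a1, the log2 ratio of Ibsp ran from -1.81 to -0.53 in control, -0.59 to 0.37 in trauma, -0.15 to 1.27 in ligature and 0.60 to 1.23 in ligature plus trauma.

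**Figure D4:**
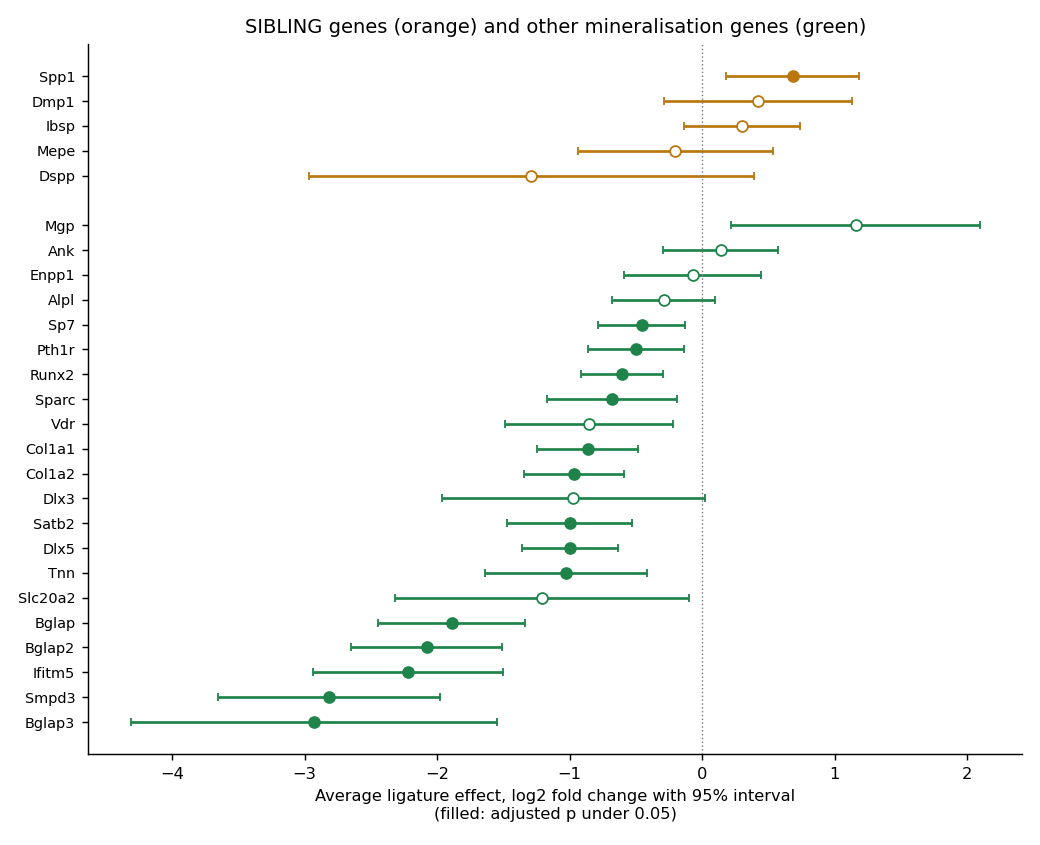
Average ligature effect (log2 fold change with 95% interval, edgeR) of the SIBLING members in orange and of the other mineralisation and osteoblast genes in green; filled points have an adjusted p under 0.05. Of the green genes 14 are filled and all 14 lie below zero, whereas Spp1 is the filled orange point and lies above it.

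Enzymes that modify or cut SIBLING proteins changed in both directions: of 13 tested, 4 rose and 2 fell in the average ligature effect (median -0.12). Among all genes tested, 10.8% rose and 10.7% fell in that effect. Mmp3, a matrix protease that cleaves osteopontin, rose by 8.60 ± 0.58 on the log2 scale (edgeR adjusted p = 4.53e-07) and Mmp9, another such protease, by 1.89 ± 0.23. Acp5, the osteoclast phosphatase that removes phosphate from osteopontin, rose from 506 ± 263 CPM in control to 2597 ± 634 in ligature (SD, n = 4; average effect 2.24 ± 0.32, edgeR adjusted p = 0.000188), and Tgm2, a transglutaminase that crosslinks osteopontin, by 1.08 ± 0.25. Those that fell were Fam20c, the Golgi kinase that phosphorylates the family (-0.86 ± 0.28, edgeR adjusted p = 0.0400), and Klk4, an enamel protease (-2.10 ± 0.66, 0.0326), both named after their values were seen. Acp5, Mmp9 and, among the receptors, Itgb3 also belong to the osteoclast list. The count of 2 lower was 4 with DESeq2, 1 with no filter or limma-voom, and 0 in the 13 libraries or with the length covariate. With 1 library left out it ran from 0 to 3: Fam20c lost its call in 11 of 16 such fits (edgeR adjusted p up to 0.0987) and Klk4 in 9 of 16 (up to 0.0620).

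Phex, a membrane protease, did not pass (-2.07 ± 0.72, edgeR adjusted p = 0.0517). It is on both the osteocyte and the odontoblast and pulp lists, and was named after its values were seen. It was at 215, 64.4, 66.4 and 218 CPM in control, 13.3, 0.586, 14.2 and 52.1 in ligature, 235, 76.4, 13.6 and 15.3 in trauma and 41.9, 16.4, 12.96 and 64.6 in ligature plus trauma. All 4 ligature libraries lay below all 4 controls, with the lowest value in ligature 2, a library with the length shift, and trauma overlapped both.

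Receptors for the family were also split, with 3 of 10 higher and 3 lower (median -0.07), where 10.8% of all genes tested rose and 10.7% fell. Itgb3, the beta chain of the osteoclast vitronectin receptor, rose by 2.28 ± 0.32 on the log2 scale (edgeR adjusted p = 0.000158), Itga5 by 0.99 ± 0.32 and Cd44, a hyaluronan receptor that also binds osteopontin, by 0.70 ± 0.20. Itga8 (-2.35 ± 0.51), Itgb6 (-2.42 ± 0.57), an epithelial integrin chain, and Itgb5 (-0.53 ± 0.18) fell. Itgav, the partner chain of Itgb3, was at 0.63 ± 0.28 (edgeR adjusted p = 0.125). Itga5, Itgb5 and Itgav were named after their values were seen. The calls of Itga5 and Itgb5 were each lost in 11 of 16 fits with 1 library left out (edgeR adjusted p up to 0.0851 and 0.0923). That of Itgb5 was also lost in the 13 libraries without the length shift.

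Related secretory calcium-binding phosphoprotein genes of enamel and junctional epithelium went lower in 3 of 4 tested and higher in none, where 10.7% of all genes tested fell. Odam, made by the epithelium that seals gum to tooth, fell by 3.37 ± 0.34 on the log2 scale (edgeR adjusted p = 1.66e-05), and Ambn, an enamel matrix gene, by 1.55 ± 0.43 (0.0169, lost in the 13 libraries at 0.0830). Enam, another enamel matrix gene, was called (edgeR adjusted p = 0.0106, lost with limma-voom at 0.155), but it had no counts in the 8 libraries with a ligature and at most 3.20 CPM elsewhere, so no fold is given. Control 1, trauma 2 and trauma 4 had no Enam counts either. Amtn was at -0.61 ± 0.38 (0.261). Oral epithelium markers fell with them, 12 of 12, from sums of 1314 to 11998 CPM in control and 4242 to 28557 in trauma to 1388 to 2197 in ligature and 743 to 2500.1 in ligature plus trauma, with at most 2 of the 12 at 0 in a library. The part of epithelium in these values was not tested.

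Around their group means the members did not move as 1 block. Over 10 pairs of members and 16 libraries, with log2 CPM centred on group means, the highest correlation was between Dmp1 and Dspp (Pearson's r = 0.759, exact permutation p = 0.0108, adjusted p = 0.102; Spearman's rho = 0.724, exact permutation p = 0.00838, adjusted p = 0.0838). It was r = 0.560 without ligature 4 and trauma 3, the libraries farthest from the middle in Dmp1. Spp1 and Mepe came next (r = 0.603, exact permutation p = 0.0205, adjusted p = 0.102; rho = 0.609, exact permutation p = 0.0252, adjusted p = 0.126), with r = 0.692 without trauma 3 and trauma 4. Ibsp and Spp1 had r = 0.562 (exact permutation p = 0.0726, adjusted p = 0.221; rho = 0.491, exact permutation p = 0.115, adjusted p = 0.287), which was r = 0.220 without control 1 and trauma 3. No pair passed after adjustment.

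The genes whose levels most resembled each member were found among 11088 well-expressed genes by the Pearson correlation of group-centred log2 CPM over the 16 libraries, given as a description. The closest to Spp1 were Prss23 (r = 0.919), Cavin2 (0.892) and Gpr137b-ps (0.889), with the osteoclast genes Dcstamp (0.877) and Tcirg1 (0.870) at ranks 4 and 7, both named after their values were seen. Ibsp was closest to Fam114a1 (r = 0.929), Ctsb (0.913) and Srpx2 (0.909). Dmp1 was closest to Jcad (r = 0.900), Angpt4 (0.876) and Nfic (0.848), and Mepe to Agmo (0.893), Slc16a7 (0.880) and Cd84 (0.863). Mepe too had an osteoclast gene, Atp6v0d2 (0.827), at rank 7, also named after its values were seen. Dspp had the highest value of all, with St8sia1 (r = 0.977), Nes (0.975) and Cpm (0.956).

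Nes, which encodes the intermediate filament nestin, is printed beside Dspp as one of the genes closest to it. Its agreement with Dspp therefore follows in part from how it was picked. Nes was at 168, 40.9, 30.4 and 99.9 CPM in control and at 15.0, 20.5, 26.5 and 168 in ligature. In trauma it was at 223, 43.7, 9.60 and 20.4 CPM, and in ligature plus trauma at 68.6, 125, 60.3 and 97.6. In control the libraries had the same order in both genes, and trauma 1, ligature 4 and control 1 were high in both. No ligature plus trauma library reached the level of those 3 in either gene.

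**Figure D5:**
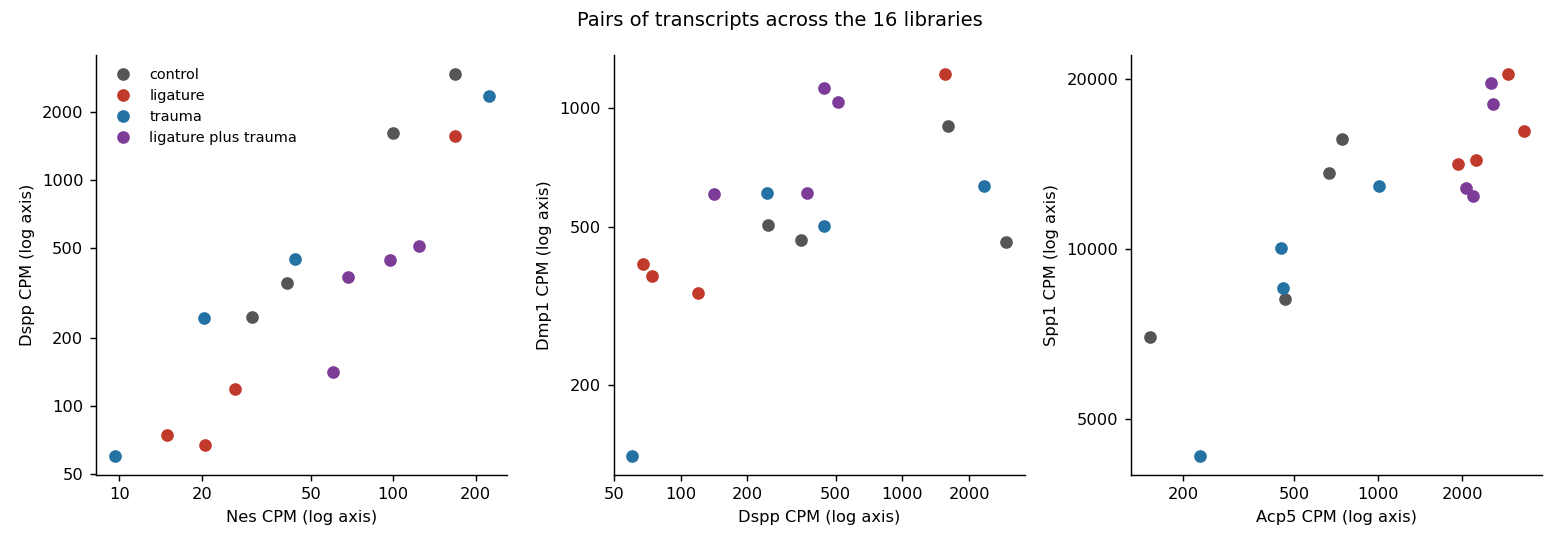
Dspp against Nes, Dmp1 against Dspp and Spp1 against Acp5, each point 1 of the 16 libraries, in CPM on log axes and coloured by group. Control 1, ligature 4 and trauma 1 are high in both Nes and Dspp, and in the Spp1 panel the 8 libraries with a ligature lie at 1925 CPM of Acp5 or above, with no library without a ligature past 1011 CPM.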

How the data were processed

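RNA was taken from periodontal ligament and poly(A) transcripts were sequenced, per the labels' protocols. The authors deposited raw read counts, as whole numbers, for each gene and library. Per the submitters' processing notes the tools were DESeq2 1.32.0, StringTie 2.1.7, HISAT2 2.2.1, FastQC 0.11.9 and Trimmomatic 0.39, used with GRCm39 in roles the notes leave out. The counting tool, annotation release and strand setting were not given in the sources used here, so reads of overlapping or antisense genes cannot be told apart.

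Counts were fitted with edgeR 4.0.16 (R 4.3.3; trimmed-mean scaling, expression filter with minimum count 10 by group, quasi-likelihood test, all 16 libraries in 1 fit with 12 residual degrees of freedom), and p-values were adjusted by Benjamini-Hochberg over 20953 genes, threshold 0.05. The average effects are the mean of the effects at both levels of the other treatment. Log2 ratios to Spp1 used counts plus 0.5 and an exact permutation of ligature or trauma labels within the other treatment (4900 regroupings), adjusted over 8 tests. Both tests were checked on simulated data.

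Gene symbols, exon lengths and coding sequences are from GENCODE M21 (GRCm38), so no gene coordinates are given. Members and gene lists were chosen with earlier results of these data known. Named context genes are the up to 4 of each list with the lowest p, and likeness takes the 3 closest genes; exceptions are stated. Library pairs correlated at 0.948 at most, so none was taken as a duplicate. Alternatives were DESeq2 1.42.0, its size factors in edgeR, no filter, at least 50 counts in 4 libraries, compared groups only, a replicate block, limma-voom 3.58.1 with sample weights, each library left out, 13 libraries without the length shift, the slope on length as a covariate and, for ratios, 5 added counts and no strata. At this depth even Mepe had at least 1066 counts in a library, so spread between libraries rather than counting error limits precision.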

Additional observations from a re-analysis of the deposited data

Results flagged for a closer look

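In 6 of the 36 groups of 4 values examined, 1 library lay so far from the other 3 that its gap, divided by the range of the group, passed Dixon's 95% critical value. For independent, normally distributed values chance gives about 1 in 20 such groups. The CPM were not log-transformed and the groups share libraries and counts, so the 6 flags cannot be weighed against that rate. Ibsp was low in control 1 at 3319 CPM, against 6594 to 7149 in the other controls. Dmp1 was high in control 4 at 900.2 CPM and in ligature 4 at 1219 CPM. Dspp was high in ligature 4 at 1559 CPM and in trauma 1 at 2344 CPM. The log2 ratio of Ibsp to Spp1 was high in control 2 at -0.30. Ligature 4 was thus apart in both Dmp1 and Dspp. Its level of Nes, a gene picked for likeness to Dspp, was also the highest of its group (168 CPM).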

How the results depend on the processing

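The call of Spp1 in the average ligature effect, the 1 member called, held with DESeq2 (adjusted p = 0.0207), the stricter filter (0.0387) and limma-voom (0.0323). No member was called there (0) with DESeq2's size factors in edgeR (Spp1 adjusted p = 0.0520), no filter (0.0824), the 13 libraries (0.131), the length covariate (0.0813) or the replicate block (Spp1 0.71, adjusted p = 0.0578). With 1 library left out, 0 to 1 members were called there and 0 to 1 in ligature against control. Nothing in the labels says that the replicate numbers pair the libraries. In deviations from group means, same-numbered libraries correlated at -0.157 to 0.215, over 0.1 in 5 of 24 pairs. Differently numbered libraries were not set beside them, so these values cannot decide whether the numbers mark pairs.

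Member differences that changed sign were not called in either setting, and the causes were not tested. Dmp1 in ligature against control was -0.0053 with DESeq2, -0.0092 with the compared groups only, -0.12 with limma-voom and -0.14 with the replicate block. Dspp in ligature plus trauma against ligature was 0.30 with the replicate block, 0.54 with limma-voom and 0.93 with the length covariate. That covariate also gave Dspp 0.44 in trauma against control, 0.57 in ligature plus trauma against control, 0.13 against trauma and 0.68 in the average trauma effect. Without the covariate these Dspp differences were -0.73, -1.81, -1.08 and -0.52, in the same order. The covariate gave Mepe 0.033 in ligature plus trauma against trauma. Limma-voom gave Ibsp -0.029 in trauma against control. The 13 libraries gave Ibsp 0.24 in ligature plus trauma against ligature, 0.14 in the average trauma effect and 0.19 in the interaction, Mepe 0.086 in ligature plus trauma against trauma, and the Dspp to Spp1 trauma ratio -0.00238.

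With each library left out in turn, the ranges that crossed zero were as follows. Dmp1 ran from -0.64 to 0.30 in ligature against control and -0.49 to 0.0026 in trauma against control. Dspp ran from -2.36 to 0.075 in trauma against control, -0.67 to 2.07 in ligature plus trauma against ligature, -1.46 to 0.55 against trauma, -1.34 to 0.67 in the average trauma effect and -0.39 to 2.81 in the interaction. Ibsp ran from -0.16 to 0.19, -0.34 to 0.0032, -0.16 to 0.028 and -0.36 to 0.020 in trauma against control, ligature plus trauma against ligature, the average trauma effect and the interaction. Mepe ran from -0.062 to 0.51 in ligature plus trauma against control, -0.34 to 0.23 against trauma and -0.0074 to 0.62 in the interaction, and Spp1 from -0.17 to 0.078 in ligature plus trauma against ligature. Among ratios to Spp1, Dspp with trauma ran from -0.38 to 0.62, Mepe with the ligature from -1.05 to -0.63 and with trauma from 0.58 to 1.01.

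Calls over all genes in the average ligature effect ran from 2991 to 5897 across settings, in ligature against control from 1369 to 3871, in ligature plus trauma against control from 743 to 4478 and against trauma from 403 to 2179. They ran from 1 to 129 in trauma against control and from 0 to 82 in the average trauma effect.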
